A study of Mus musculus with 8 samples.

Results

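A total of 1613 genomic sites were listed as bound by tyrosine-phosphorylated STAT3β, and not by STAT3α, after 30 min of oncostatin M in mouse embryonic fibroblasts. They were chosen as the intervals of the STAT3β 30 min peak list that had no interval of identical chromosome, start and end in the STAT3α 30 min list. The 30 min lists together held 5338 distinct sites, of which these 1613 made up 30.2%, the 1447 sites of STAT3α alone 27.1% and the 2278 sites of both spliceforms 42.7%. The sites of STAT3β alone were 41.5% of the 3891 sites in the STAT3β list. The sites were thus selected on their listing in the 30 min libraries of both spliceforms, so these shares describe the choice and are not a test of it.

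STAT3 is a latent cytoplasmic transcription factor. Cytokines that signal through the shared receptor subunit gp130, oncostatin M among them, activate JAK kinases, which phosphorylate STAT3 on a C-terminal tyrosine. Phosphorylated STAT3 dimerises, enters the nucleus and binds palindromic elements in promoters and distal enhancers. The spliceform STAT3α carries a C-terminal transactivation domain. STAT3β arises from an alternative splice acceptor, lacks that domain and ends in a short tail of its own, but keeps the DNA-binding domain, the SH2 domain and the tyrosine. In fibroblasts, signalling through this pathway is known for a fast induction of feedback inhibitors and immediate early genes that is largely transient.

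The cells were STAT3-/- fibroblasts that re-expressed either STAT3alpha (iSTAT3α) or STAT3beta (iSTAT3β) from a construct induced by 1 nM 4-hydroxytamoxifen for 48 h or longer and kept under puromycin selection. All 6 immunoprecipitated groups shared this genotype, the inducer and a serum-free period of 16 h, and were treated with 10 ng/mL human oncostatin M for 0, 30 or 180 min. Chromatin was recovered with an antibody against STAT3 phosphorylated at that tyrosine. There was 1 cell line per spliceform, with 3 lists, so spliceform and cell line cannot be told apart, and every list came from merged duplicates, so no value has an error between samples. Input DNA of each line was a further sample and had no list used here. The lists held 9 and 12 sites at 0 min, 3725 and 3891 at 30 min, and 40 and 120 at 180 min, for STAT3α and STAT3β in that order. They gave positions only, with no height, score or read number, so the depth behind a site is unknown and absence from a list does not show that a site was unbound. Coordinates refer to mm9, counted from 1. Annotation and sequence of that build were not used here, and sites are therefore named by coordinate, without genes.

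Identity and overlap of intervals chose the same sites. None of the 1613 sites overlapped a STAT3α 30 min interval by even 1 bp. The smallest distance between centres of different 30 min sites of any class was 404 bp. Intervals of the lists were thus either identical or apart, so the absence of overlap is a property of the lists and no support for the choice. The site nearest to such an overlap was chr17:42717134-42717533, which ended 4 bp before a site of both spliceforms at chr17:42717538-42717937. Next came chr3:104591445-104591844, 9 bp before a site of both, and then sites 23 and 53 bp from a site of STAT3α alone, which are given with such pairs further on. Among gaps to sites of both spliceforms alone, the third was 61 bp (chr8:11382828-11383227), followed by 75 bp (chr17:87361747-87362146) and 120 bp (chr10:94605899-94606298). The interval widths carried little variation. A total of 1609 of the 1613 sites were 400 bp wide and together all of them covered 647 kb. The 4 wider sites were chr1:39945717-39946504, chr6:12408402-12409196, chr13:52770937-52771696 and chr17:64087497-64088247. They differed in their surroundings. The chromosome 13 site lay 16.5 kb from a site of both spliceforms, those on chromosomes 17 and 1 lay 125 and 128 kb from one, and the chromosome 6 site lay 3285 kb from one. None of the 4 was listed at 0 or 180 min.

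The sites of STAT3β alone were found on all 20 chromosomes that carried peaks, but at different densities. Over the span between the first and last listed site of a chromosome, they numbered 0.637 per Mb in all. The lowest density was 0.207 per Mb on chromosome X, the median 0.612 and the highest 1.26 per Mb on chromosome 15. Chromosome X was also lowest for STAT3α alone (0.195 per Mb) and for both spliceforms (0.276 per Mb). Chromosomes 11 (1.06 per Mb), 3 (1.02 per Mb) and 17 (1.01 per Mb) followed chromosome 15. Sites of both spliceforms were also dense on chromosomes 11, 15 and 17, with 1.64, 1.54 and 1.39 per Mb, but less so on chromosome 3, with 0.931. Chromosome 3 carried the most sites of STAT3β alone, 153, and was the 1 chromosome of 20 on which they outnumbered the sites of both spliceforms, 139. Chromosome 10 came close, with 110 sites of STAT3β alone and 112 of both. The sites of STAT3α alone likewise outnumbered those of both spliceforms on chromosome 19, with 68 against 59. Per site of both spliceforms, those of STAT3α alone numbered 0.411 to 1.15 across chromosomes. For each site of both spliceforms there were 1.10 sites of STAT3β alone on chromosome 3 and 0.982 on chromosome 10, against 0.708 over the genome, 0.492 on chromosome 8 and 0.438 on chromosome 9.

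Read as a share of the STAT3β list, the same order appeared. Sites of STAT3β alone made up 52.4% of that list on chromosome 3 (95% exact binomial interval 46.5 to 58.2%, 153 of 292 sites) and 49.5% on chromosome 10 (42.8 to 56.3%, 110 of 222 sites). They made up 33.0% on chromosome 8 (26.1 to 40.4%, 59 of 179 sites) and 30.5% on chromosome 9 (23.2 to 38.5%, 46 of 151 sites). The median chromosome had 40.8%. The intervals of chromosomes 3, 10, 8 and 9 excluded the overall 41.5%, with chromosome 6 just below it as well (33.9%, 27.1 to 41.2%), and those of the other 15 chromosomes included it. These intervals, like all those given here, cover counting over sites only. Neighbouring sites may share a locus, and no test over samples was possible with 1 list per group.

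**Figure D1:**
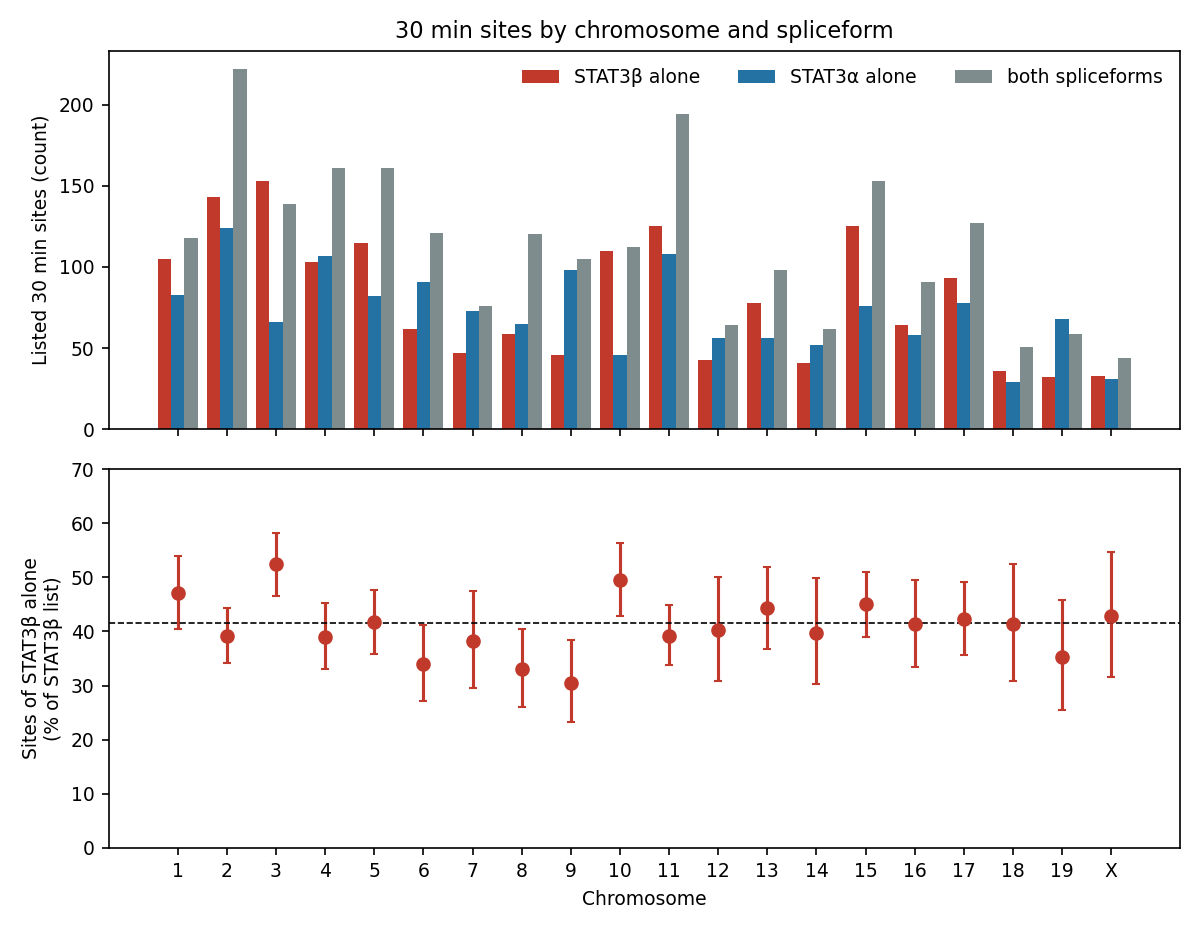
Upper panel, number of 30 min sites on each chromosome (y axis, count) for STAT3β alone, STAT3α alone and both spliceforms. Lower panel, sites of STAT3β alone as a share of the STAT3β list (y axis, %), with 95% exact binomial intervals and the overall 41.5% as a dashed line. Chromosome 3 stands highest at 52.4% and chromosome 9 lowest at 30.5%.

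Within chromosomes the sites were spread thinly, with some dense places. Of the 1539 windows of 1 Mb that held any 30 min site, 925 held a site of STAT3β alone, and 523 of these held exactly 1. In 216 of the 925 windows (23.4%) no site of another class was present, and these windows held 285 sites. The matching share was not taken for the other classes, so this does not show whether STAT3β alone stands apart. The densest windows were described after their counts had been seen. Chromosome 5 between 91 and 92 Mb held 9 sites of STAT3β alone beside 6 of both spliceforms and 2 of STAT3α alone. Chromosome 17 between 84 and 85 Mb held 8, but there STAT3α alone and both spliceforms had 7 each. On chromosome X between 158 and 159 Mb, 8 sites of STAT3β alone stood beside 1 site of both spliceforms and 0 of STAT3α alone. Chromosome 1 between 59 and 60 Mb held 7 against 2 of each other class. A window of many STAT3β sites was thus a window of many STAT3 sites of every class in some places, such as chromosome 17, and almost of STAT3β alone in others, such as the end of chromosome X. The spacing between neighbouring sites of STAT3β alone had a median of 282 kb on chromosome 3 and 303 kb on chromosome 15, and of 1789 kb on chromosome 18 and 1779 kb on chromosome 7. The longest interval without one was 23.4 Mb, on chromosome X between 67439730 and 90877487.

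Local runs were rare and short. A run was a series of 2 or more sites of STAT3β alone whose neighbouring centres lay within 10 kb, whether or not sites of other classes stood between them. Such runs held 120 of the 1613 sites (7.44%, interval 6.21 to 8.83%). Over all 30 min sites, 10.3% lay in a run of their own class. STAT3α alone had 115 of 1447 sites in runs (7.95%, 6.61 to 9.46%), an interval that overlapped that of STAT3β alone. Sites of both spliceforms had 314 of 2278 (13.8%, 12.4 to 15.3%), and they are the more numerous class, which by itself leaves more neighbours to find. The 58 runs of STAT3β alone comprised 54 pairs and 4 runs of 3 sites. The pairs lay on 17 chromosomes, their centres were 422 to 9904 bp apart (median 3114 bp), and 12 of the 54 were within 1 kb. A site of another class stood between the members of 6 pairs.

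The 4 runs of 3 sites differed in what surrounded them. On chromosome 2 the sites chr2:125755545-125755944, chr2:125758572-125758971 and chr2:125766703-125767102 were 3027 and 8131 bp apart, and a site of both spliceforms lay inside the run. Within 100 kb of that run were 3 sites of both spliceforms, 1 of STAT3α alone and 1 more of STAT3β alone. On chromosome 3 the sites chr3:57098641-57099040, chr3:57108371-57108770 and chr3:57109066-57109465 were 9730 and 695 bp apart. This run had 2 sites of both spliceforms within 100 kb, the nearer at 39.1 kb, and no site of another kind there. Its nearest site of STAT3α alone was 1062 kb away. On chromosome 5 the sites chr5:91179425-91179824, chr5:91183007-91183406 and chr5:91185481-91185880 were 3582 and 2474 bp apart. It was the most crowded of the 4, with 4 more sites of STAT3β alone, 4 of both spliceforms and 1 of STAT3α alone within 100 kb, and it belonged to the densest 1 Mb window. On chromosome 13 the sites chr13:52917497-52917896, chr13:52923660-52924059 and chr13:52924196-52924595 were 6163 and 536 bp apart, and a site of both spliceforms lay inside, 0.601 kb from the nearest of them. The first site of this run was 146 kb from the wide site at 52770937.

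**Figure D2:**
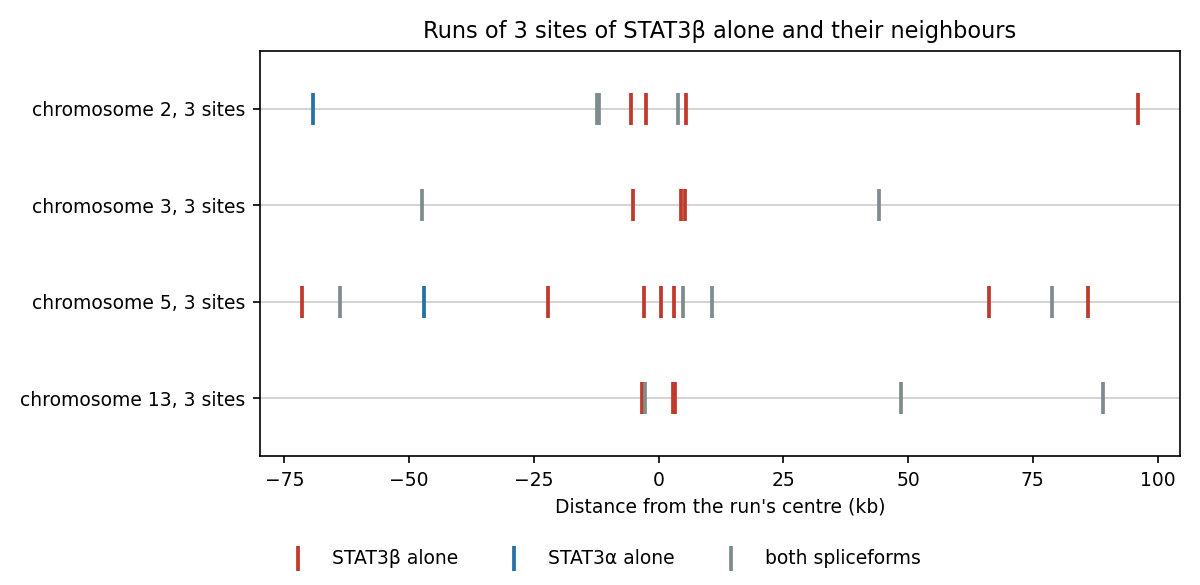
Positions of 30 min sites (x axis, distance in kb from the centre of the run) around the 4 runs of 3 sites of STAT3β alone, 1 line per run, within 100 kb on either side. Each tick is a site, coloured by class. The run on chromosome 3 has 2 other sites in view, and the run on chromosome 5 has 9.

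Among the pairs, the first 6 in genome order stood in sparser settings than the runs of 3 sites. Each had at most 1 site of both spliceforms and 0 of STAT3α alone within 100 kb. The runs of 3 sites had 2 to 4 of both there. The pair at chr1:39374815-39383720 had its sites 8506 bp apart and a site of both spliceforms 34.7 kb away. On chromosome 2, pairs began at 50644558, 64958098 and 76513140, with spacings of 3108, 904 and 1737 bp. The pair at 64958098 had no other site of any class within 100 kb, and its nearest site of both spliceforms was 4180 kb away. The others had one at 98.6 kb (50644558) and 27.1 kb (76513140). On chromosome 3, 2 pairs followed one another closely, starting at 19326098 and 19347838, with spacings of 3577 and 3107 bp. Neither had a site of both spliceforms or of STAT3α alone within 100 kb.

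Sites of STAT3β alone also followed one another over longer distances. When all 5338 sites were put in genome order, those of STAT3β alone formed 1047 unbroken stretches, with no site of another class between the first and the last. A total of 682 stretches had 1 site, 233 had 2, 89 had 3 and 43 had 4 or more. The share of sites that stood singly between sites of other classes was 42.3% for STAT3β alone, 52.0% for STAT3α alone and 31.9% for both spliceforms. The share in stretches of 4 or more was 12.3%, 9.26% and 26.1% in the same order. These shares depend on the number of sites in a class, which was lowest for STAT3α alone and highest for both spliceforms.

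The longest stretch held 10 sites over 4.63 Mb of chromosome 3, from chr3:60309033-60309432 to chr3:64942641-64943040. A site of STAT3α alone lay 4.14 kb before it and a site of both spliceforms 163 kb after it. Spacings inside it ran from 3.65 to 1786 kb with a median of 161 kb, so it was long rather than dense. The next stretch held 9 sites over 1.71 Mb of chromosome X, from chrX:156808117-156808516 to chrX:158519828-158520227, and was the densest of the 5 longest at 5.26 sites per Mb. Its first 3 sites ended at 156823498, the next was 1530 kb further on, and the last 6 lay between 158352740 and 158520227. A site of both spliceforms followed 3.18 kb after the last. Chromosome 2 held the 2 next, 7 sites over 2.53 Mb from 137622211 to 140156528 and 6 sites over 3.53 Mb from 105003026 to 108531583. Each of these had a site of STAT3α alone shortly before it, at 39.1 and 32.6 kb. The last of the 5 held 6 sites over 4.85 Mb of chromosome 3, from 14506016 to 19351344. It contained both of the adjacent pairs named above, and its first site was 4018 kb from the second. Chromosome 3 thus carried 2 of the 5 longest stretches and chromosome 2 another 2.

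**Figure D3:**
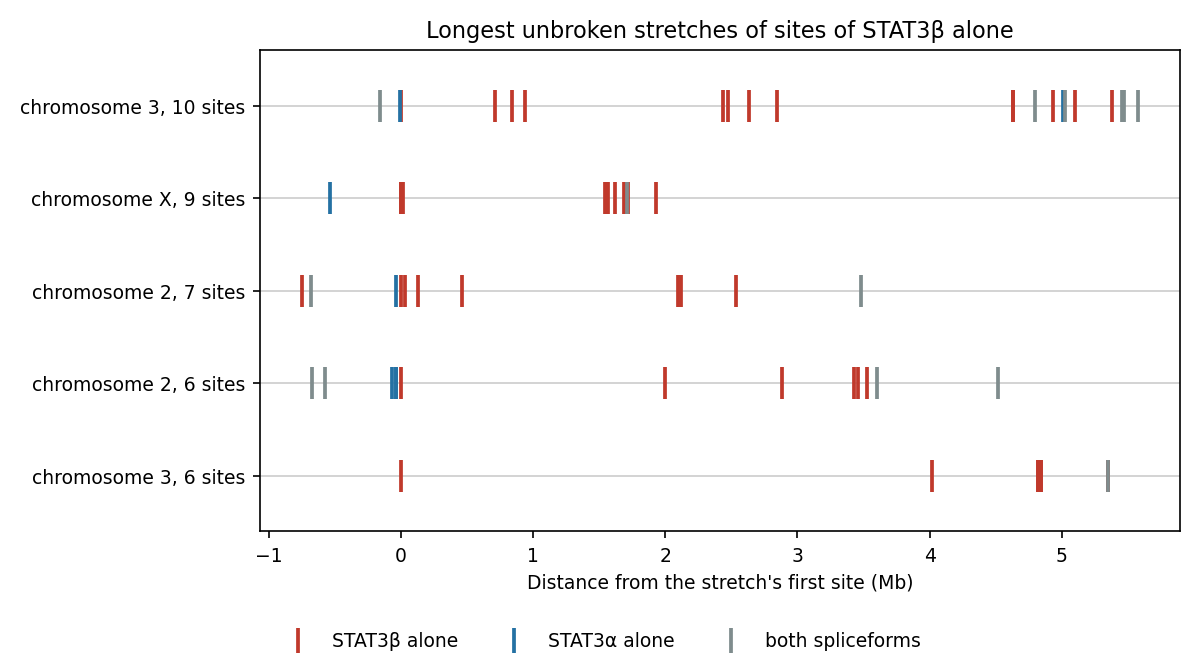
Positions of 30 min sites (x axis, distance in Mb from the first site of the stretch) for the 5 longest unbroken stretches of sites of STAT3β alone, 1 line per stretch, with 1 Mb on either side. Each tick is a site, coloured by class. The 9 sites on chromosome X fall into a group of 3 and a group of 6, and the 10 sites on chromosome 3 are spread over 4.63 Mb.

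The distance to sites bound by both spliceforms was examined next. Distances were taken between centres, and a site was never counted as its own neighbour. A site of STAT3β alone had its nearest site of both spliceforms at a median of 173 kb (quartiles 51.9 and 547 kb). For STAT3α alone the median was 129 kb (34.0 and 427 kb), and a site of both spliceforms had another such site at a median of 119 kb (28.9 and 386 kb). The 3 classes thus overlapped widely in this distance. Within 10 kb, 165 of 1613 sites of STAT3β alone had a site of both spliceforms (10.2%, interval 8.79 to 11.8%), against 11.8% of all 30 min sites and 10.4% of STAT3α alone (8.91 to 12.1%). Within 50 kb the shares stood further apart, 24.5% for STAT3β alone (22.4 to 26.7%), 31.9% for STAT3α alone (29.5 to 34.4%) and 32.9% for both spliceforms (31.0 to 34.9%). Within 100 kb they were 37.3%, 44.2% and 46.1%. The intervals of STAT3β alone and STAT3α alone overlapped at 10 kb and did not at 50 kb. Sites share loci and the difference was not tested over samples.

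Distance to any other site of any class was also longest for STAT3β alone at the median. At 10 kb, 339 sites of STAT3β alone had a neighbour (21.0%, interval 19.1 to 23.1%), against 23.0% of all 30 min sites. At 50 kb the shares were 45.7% for STAT3β alone, 55.0% for STAT3α alone and 53.3% for both spliceforms. The median distance was 61.0 kb for STAT3β alone, 40.8 kb for STAT3α alone and 42.2 kb for both. To another site of its own class, a site of STAT3β alone lay at a median of 211 kb, near the 214 kb of STAT3α alone. For sites of both spliceforms this median was 119 kb. These own-class distances depend on the number of sites in a class, which was lowest for STAT3α alone and highest for both spliceforms.

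**Figure D4:**
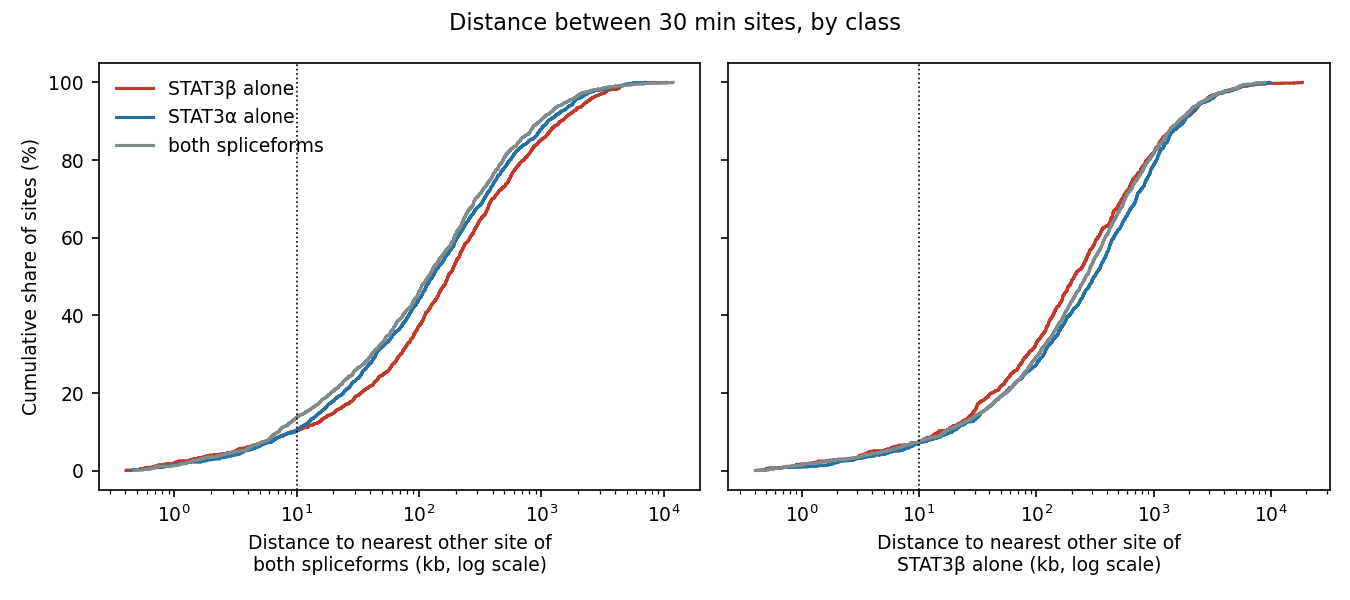
Cumulative share of sites (y axis, %) against the distance between centres (x axis, kb, log scale) to the nearest other site of both spliceforms (left) and of STAT3β alone (right), with 1 line per class and a dotted line at 10 kb. In the left panel the line of STAT3β alone leaves that of STAT3α alone above 10 kb, and the medians are 173, 129 and 119 kb for STAT3β alone, STAT3α alone and both spliceforms.

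At the far end were sites several Mb from any STAT3α 30 min site. The site farthest from any STAT3α 30 min site was chrX:119944827-119945226, with 10.6 Mb to the nearest. It was followed by chr14:93461363-93461762 (6.04 Mb), chr8:55114094-55114493 (5.02 Mb), chr18:90017532-90017931 (4.95 Mb) and chr8:55695688-55696087 (4.44 Mb). The pair on chromosome 8 were each other's nearest site of STAT3β alone, 582 kb apart. The remaining 3 had their nearest site of STAT3β alone at 15787 kb (chromosome X), 8807 kb (chromosome 14) and 5121 kb (chromosome 18). None of the 5 was listed at 0 or 180 min.

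At the near end, 31 sites of STAT3β alone (1.92%, interval 1.31 to 2.72%) had a site of both spliceforms within 1 kb, against 1.55% of all 30 min sites. Another site of STAT3β alone was that close for 28 (1.74%, 1.16 to 2.5%, against 1.39% of all 30 min sites) and a site of STAT3α alone for 14 (0.868%, 0.475 to 1.45%, against 1.01%). Each of the 3 intervals included the share over all sites. In the last group the spliceforms were listed at different intervals of the same short piece of chromosome. The 14 pairs of a STAT3β and a STAT3α site lay on 10 chromosomes, with centres 423 to 999 bp apart (median 555 bp). The closest were on chromosome 11, where chr11:86570924-86571323 of STAT3β ended 23 bp before chr11:86571347-86571746 of STAT3α. On chromosome 1, chr1:138593057-138593456 of STAT3β began 53 bp after chr1:138592604-138593003 of STAT3α. On chromosome 11 a further pair, chr11:61958624-61959023 and chr11:61959107-61959506, had a gap of 83 bp. The STAT3β site came before the STAT3α site in 6 pairs and after it in 8. Within 10 kb, 99 sites of STAT3β alone (6.14%, interval 5.02 to 7.42%) had a site of STAT3α alone, against 7.10% of all 30 min sites.

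The class of the nearest neighbour departed somewhat from the make-up of the lists, towards the site's own class. For 653 sites of STAT3β alone (40.5%, interval 38.1 to 42.9%) the nearest other site was one of both spliceforms, which are 42.7% of all other sites. For 569 (35.3%, 32.9 to 37.7%) it was another site of STAT3β alone, which are 30.2% of all other sites, and for 391 (24.2%, 22.2 to 26.4%) a site of STAT3α alone, which are 27.1%. For STAT3β alone, own-class neighbours were thus above their share of the lists and neighbours of STAT3α alone below theirs. These intervals excluded the shares of the lists, while that for neighbours of both spliceforms included it. Mutual nearest neighbours were counted once for each site, and class make-up differed between chromosomes, so this is not a test of a departure. Own-class neighbours were also above their share for STAT3α alone (31.3% against 27.1%) and for both spliceforms (45.5% against 42.7%). A total of 1596 sites of STAT3β alone had a listed site on either side. The most frequent setting was a site of STAT3β alone on one side and of both spliceforms on the other (483 sites, 30.3%, against 26.1% of all 30 min sites). STAT3α alone with both spliceforms followed (349 sites, 21.9%, against 23.3%), then STAT3α alone with STAT3β alone (242 sites, 15.2%, against 14.9%). A further 219 (13.7%, against 18.0%) stood between sites of both spliceforms, 201 (12.6%, against 9.63%) between sites of STAT3β alone and 102 (6.39%, against 8.08%) between sites of STAT3α alone. At least 1 neighbour of both spliceforms was present for 1051 (65.9%), against 67.4% of all 30 min sites, a share near the background.

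The lists at 0 and 180 min came from other libraries than those that chose the sites. Before oncostatin M, 0 of the 1613 sites were in the STAT3β list (interval up to 0.228%), against 0.131% of all 30 min sites. In the STAT3α 0 min list there was 1 (0.0620%, 0.00157 to 0.345%), against 0.0937% of all 30 min sites. Positions of 100 Mb and more were rounded in the 0 min lists, which left 2 STAT3α and 4 STAT3β entries known only to the nearest Mb. Sites of STAT3β alone were found within 0.5 Mb of 4 of these 6 entries, 3 on chromosome 2 near 158 Mb, 1 on chromosome 4 near 133 Mb, 4 on chromosome 11 near 101 Mb and 3 on chromosome 11 near 118 Mb. Sites of both spliceforms lay within 0.5 Mb of each of the 6 entries, at 1 to 13 per entry. Those of STAT3α alone did so for all but the entry on chromosome 14. Whether any site of STAT3β alone is a rounded entry cannot be told from the lists.

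After 180 min, 6 of the 1613 sites were in the STAT3β list (0.372%, interval 0.137 to 0.808%), against 2.21% of all 30 min sites. In the STAT3α list there were 2 (0.124%, 0.0150 to 0.447%), against 0.693% of all 30 min sites. In either 180 min list there were 8 (0.496%, 0.214 to 0.975%), against 2.40% of all 30 min sites and 120 of the 2278 sites of both spliceforms (5.27%, 4.39 to 6.27%). The interval of STAT3β alone lay wholly below that of both spliceforms. STAT3α alone had 0 of 1447 sites in either late list (interval up to 0.255%), which overlapped the interval of STAT3β alone. Seen from the late lists, sites of STAT3β alone were 6 of the 120 STAT3β entries and 2 of the 40 STAT3α entries. This was 5.00% of each list, against 30.2% of all 30 min sites. Sites of both spliceforms were 112 of the 120 and 35 of the 40 entries, and sites of STAT3α alone 0 of each. The remaining 2 and 3 entries were in no 30 min list. The strength of a site is not listed, and its part in which sites were listed late was not tested.

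**Figure D5:**
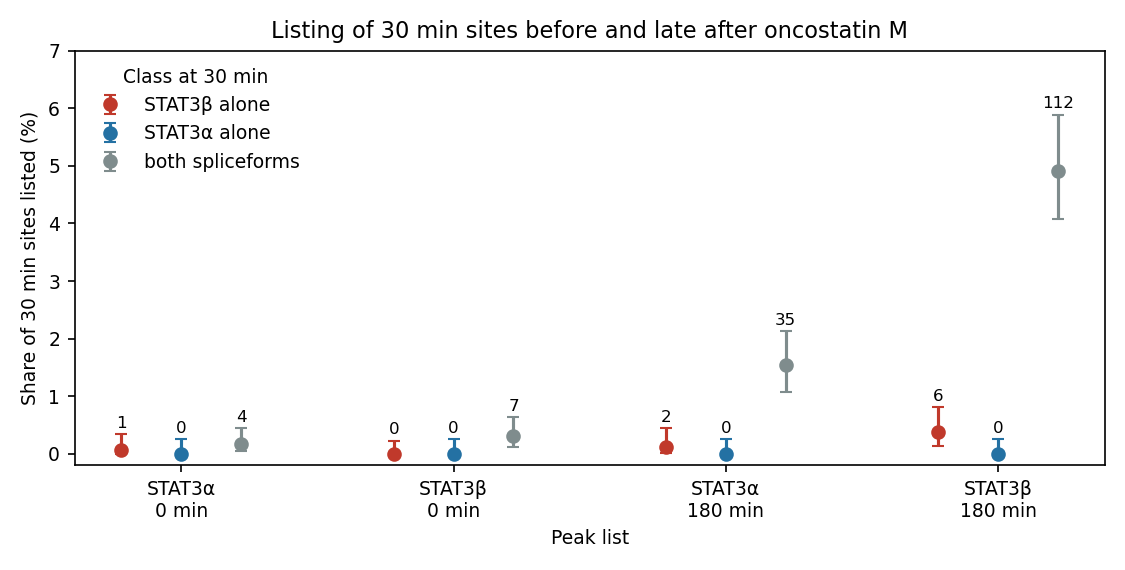
Share of 30 min sites (y axis, %) that were also listed at 0 or 180 min in either spliceform (x axis, peak list), for sites of STAT3β alone, STAT3α alone and both spliceforms. Points are shares with 95% exact binomial intervals, and the number above each is the count of sites. For STAT3β alone the counts are 1, 0, 2 and 6.

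The 8 late sites could be followed through all 6 lists. The 6 found again with STAT3β itself at 180 min were chr4:107790959-107791358, chr4:120240626-120241025, chr4:135695969-135696368, chr5:77801989-77802388, chr8:86628601-86629000 and chr10:89207427-89207826. Each of them was in the STAT3β lists at 30 and 180 min and in no other. Of the 6, 3 were on chromosome 4, which held 103 of the 1613 sites. With so few sites this is a description and was not tested. The other 2 of the 8 were late sites of the opposite spliceform. The site chr7:6362777-6363176 was listed for STAT3β at 30 min and for STAT3α at 180 min. The site chr8:14072529-14072928 was listed for STAT3α at 0 and 180 min and for STAT3β at 30 min, so it was absent from the STAT3α list at 30 min alone among the STAT3α times. It was listed before any cytokine, and it was the 1 site of the 1613 with a 0 min entry of exact position.

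The 8 late sites had no site of both spliceforms close by. Their nearest such site was 108 to 1957 kb away, with a median of 320 kb, and 0 of the 8 had one within 100 kb, while 37.3% of all 1613 did. The nearest case was chr8:86628601-86629000 at 108 kb. It was followed by the chromosome 4 sites, at 156 kb (107790959), 171 kb (135695969) and 187 kb (120240626). The sites on chromosome 8 at 14072529, chromosome 5 at 77801989, chromosome 7 at 6362777 and chromosome 10 at 89207427 followed with 452, 784, 1391 and 1957 kb. A further site of STAT3β alone within 100 kb was present for 1 of the 8, the site at 107790959, at 43.9 kb, while 32.8% of all 1613 had one. None of the 8 was in a local run, but only 7.44% of all 1613 were, so this does not set the 8 apart. With 8 sites this is a description.

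Sites of STAT3β alone near a late site were few. The 180 min lists held 133 distinct sites. Of the 1613 sites, 26 (1.61%, interval 1.06 to 2.35%) had another 180 min site within 50 kb, against 2.47% of all 30 min sites, 2.35% of STAT3α alone (1.63 to 3.27%) and 3.16% of both spliceforms (2.48 to 3.96%). The interval of STAT3β alone overlapped that of STAT3α alone and, at this limit, not that of both spliceforms. At 10 kb (0.682% against 0.790%) and at 100 kb (3.22% against 4.52%) the intervals of STAT3β alone and both spliceforms overlapped. The closest were chr11:29592048-29592447, 0.665 kb from a late site starting at 29592713, and chr10:56675990-56676389, 0.674 kb from one starting at 56676664. Next were chr13:60557273-60557672, at 0.770 kb, and chr16:24392663-24393062, at 1.05 kb from a late site starting at 24393710. Each of these late neighbours was a site of both spliceforms at 30 min. The chromosome 16 neighbour was in the late lists of both spliceforms and the other 3 in that of STAT3β. In these places the STAT3β interval was listed at 30 min and not at 180 min, while the neighbouring interval was listed at both times. Seen from the 133 late sites, 22 (16.5%, 10.7 to 24.0%) had a site of STAT3β alone within 50 kb and 10 (7.52%, 3.66 to 13.4%) within 10 kb. Of all 30 min sites of both spliceforms, 19.1% had one within 50 kb and 7.46% within 10 kb. For STAT3α alone these shares were 19.3% and 7.05%. The late sites were thus near the shares of the 30 min sites.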

How the data were processed

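Phosphorylated STAT3 was mapped by chromatin immunoprecipitation and sequencing in 6 samples, and the authors deposited 1 peak list per sample. Formaldehyde (1%) cross-linking lasted 10 min and chromatin was sheared to 200 to 500 bp, per the labels' protocols. The tools listed in the submitters' processing notes are MACS2 2.1.1.20160309 (a peak caller), HOMER 4.9, STAR 2.5.0a, Trim Galore 0.4.2 and bedtools, with mm9 as the build. What each tool did, the peak threshold and how the input entered are not given in the sources consulted. The columns used are start and end in bp.

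The gene and promoter tables at hand belong to GRCm38. On 6 chromosomes a listed peak ended past that assembly's final gene (at 196705790 on chromosome 1), so the planned shares at promoters and with a STAT motif were not computed and no sequence is printed. Groups came from sample titles. Intervals are exact (Clopper-Pearson, 95%), over sites. Named sites were those listed at 0 or 180 min, those wider than 400 bp, the 10 longest runs in genome order, the 5 nearest to a site of both spliceforms, the 5 farthest from any STAT3α site and the 5 longest stretches. Pairs within 1 kb, dense windows and sites closest to a late site were chosen after their values were seen. The sites and rules were chosen with earlier results of these data known. Alternatives for distance, linking, identity and rounded positions were tried. The functions were tested on simulated data. Python 3.11.15, numpy 2.4.6, scipy 1.17.1 and matplotlib 3.10.9 were used.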

Additional observations from a re-analysis of the deposited data

How the results depend on the processing

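Of 18 alternative values for 9 results, 11 stayed within 1.5 times a count, within the interval of a share or within 10% of a median, and 7 moved. Requiring any STAT3α interval to be more than 1 kb away left 1547 of 1613 sites, and overlap of 1 bp in place of identity left all 1613. The share of sites of STAT3β alone near a site of both spliceforms was 6.94% at 5 kb and 24.5% at 50 kb, against 10.2% at 10 kb, and 15.3% with any STAT3α site at 10 kb. The share in local runs was 5.15% with a link of 5 kb and 21.7% with 50 kb, against 7.44% with 10 kb. These limits set the shares by construction. Counting a rounded 0 min position in the same Mb raised the share listed for STAT3β at 0 min from 0 to 0.496%. This is an upper bound, since the exact positions are unknown, and a loose one. Every site near a rounded entry was counted, up to 4 for 1 entry. The share near another 180 min site was 0.682% at 10 kb, against 1.61% at 50 kb. Chosen after seeing the data were 5 of the 18, among them leaving out chromosomes 3, 10 and 15, which gave 10.8% within 10 kb of a site of both spliceforms and 6.45% in runs. No replicate could be left out and no paired analysis was possible because each group had 1 merged list. Depth is unknown, so nothing separates a weak site from an absent one.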

Other observations

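Wider windows showed places where sites of STAT3β alone and of STAT3α alone differed in number. These windows of 10 Mb were chosen for the difference between their counts, the 5 with the largest excess of STAT3β alone and the 3 with the largest excess of STAT3α alone, so the differences are a description. On chromosome 3 between 140 and 150 Mb, 19 sites of STAT3β alone stood beside 2 of STAT3α alone and 12 of both spliceforms. Chromosome 15 held 24 against 10 between 70 and 80 Mb and 19 against 6 between 90 and 100 Mb, with 22 and 21 sites of both spliceforms. Chromosome 10 held 18 against 5 between 70 and 80 Mb and 17 against 4 between 90 and 100 Mb, with 18 and 12 sites of both spliceforms. The reverse was seen on chromosome 14 between 70 and 80 Mb, with 1 site of STAT3β alone, 17 of STAT3α alone and 12 of both, and on chromosome 8 between 120 and 130 Mb, with 2, 17 and 20. Chromosome 12 between 70 and 80 Mb held 1, 15 and 11. Sites of both spliceforms numbered 12 to 22 in the first 5 windows and 11 to 20 in the other 3.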
